A study of Mus musculus with 6 samples.

Results

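Kinesins are motor proteins that walk along or disassemble microtubules with energy from ATP. The genes described here are 38 of the 49997 rows in a mouse gene count table. Their symbol is Kif followed by a number and at most 1 of the letters a, b or c. This rule uses names and no measured value, though members were chosen with earlier results of these data known. The counts come from bulk RNA-seq of long-term haematopoietic stem cells (HSCs, the rarely dividing bone marrow cells that sustain blood formation) of 4-month-old C57BL/6J mice, sorted by flow cytometry into Asrij low (3 libraries) and Asrij high (3 libraries). Asrij is the protein of Ociad1, found on endosomes and mitochondria. The deposited table's name carries the letters ArjKI, which the labels do not explain, and whether these mice carry an altered Asrij allele is not given in the sources used here. The labels give the strain alone under genotype, state no treatment for either group and do not say how Asrij was read in the sort. They also leave unsaid whether each library is a mouse of its own, so the p-values describe spread among these 6 samples, which may be technical. Libraries are written low 1 to low 3 and high 1 to high 3.

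In a dividing cell, one set of kinesins builds the bipolar spindle, moves and aligns chromosomes, trims microtubule ends and completes cytokinesis, and most of their genes are transcribed late in the cell cycle. Another set carries vesicles, mitochondria, endosomes and other cargo along microtubules between divisions. Others serve the primary cilium, a signalling organelle, or steady growing microtubule ends. By these known roles the 38 genes were placed in a mitotic list (12 genes), a transport list (13), a cilium list (6) and a list of other or mixed roles (7).

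Library totals were 24707012 to 46240743 counts in Asrij low and 62732782 to 72855125 in Asrij high, so rarely counted genes were measured less precisely in Asrij low. Low 3 stood apart in that its 10 most counted genes took 19.4% of its counts, against 5.15% to 9.99% in the other libraries. Levels below are counts per 1000000 (CPM) scaled with trimmed mean of M-values (TMM) factors, given as mean ± SD with n = 3 per group. Fold changes are Asrij high over Asrij low, with adjusted p-values from edgeR's quasi-likelihood test over all 21445 genes that passed a filter on low counts, called at 0.05. Ociad1 was higher in the high group, at 80.3 ± 5.76 against 51.6 ± 5.72 CPM (log2 0.64 ± 0.16 SE, adjusted p = 0.0115). That call was lost without high 1 (log2 0.53, adjusted p = 0.0831) and with upper quartile factors or library totals in place of TMM (log2 0.36 with either, adjusted p = 0.0834 and 0.133). The sorted populations also differed in markers of the sorted cells: 9 of 10 HSC markers fell, where 17.7% of all genes tested were lower. Their summed levels were 1247 to 1462 CPM in the low group and 421 to 686 CPM in the high group. In bulk samples, fewer cells of a type and less RNA per cell cannot be told apart.

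Mitotic kinesin transcripts were higher in the high group and most transport kinesin transcripts did not pass the test or were lower. Of 35 kinesins tested, 14 were higher and 9 were lower, where 39.4% of all genes tested were called, 21.7% higher and 17.7% lower. With upper quartile factors or library totals, which shift the all-gene median by -0.27 on the log2 scale, the split was 12 higher and 14 lower. Without low 1 or high 1, 5 kinesins were lower, and without high 3, 6 were. Among the mitotic kinesins 11 of 11 tested rose, with a median log2 fold change of 2.97, and 4 of the 11 were called and at least 8-fold higher (1.34% of all genes tested). Of 13 transport kinesins 1 rose and 4 fell, with a median of -0.29, and the median over all genes tested was -0.02. The remaining lists held 2 rises and 5 falls among 11 genes. The values of the groups did not overlap in 29 of the 35 tested members, all 11 mitotic kinesins included, where 55% of all genes tested did not overlap. Kif2b, Kif12 and Kif26a did not pass the filter.

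**Figure D1:**
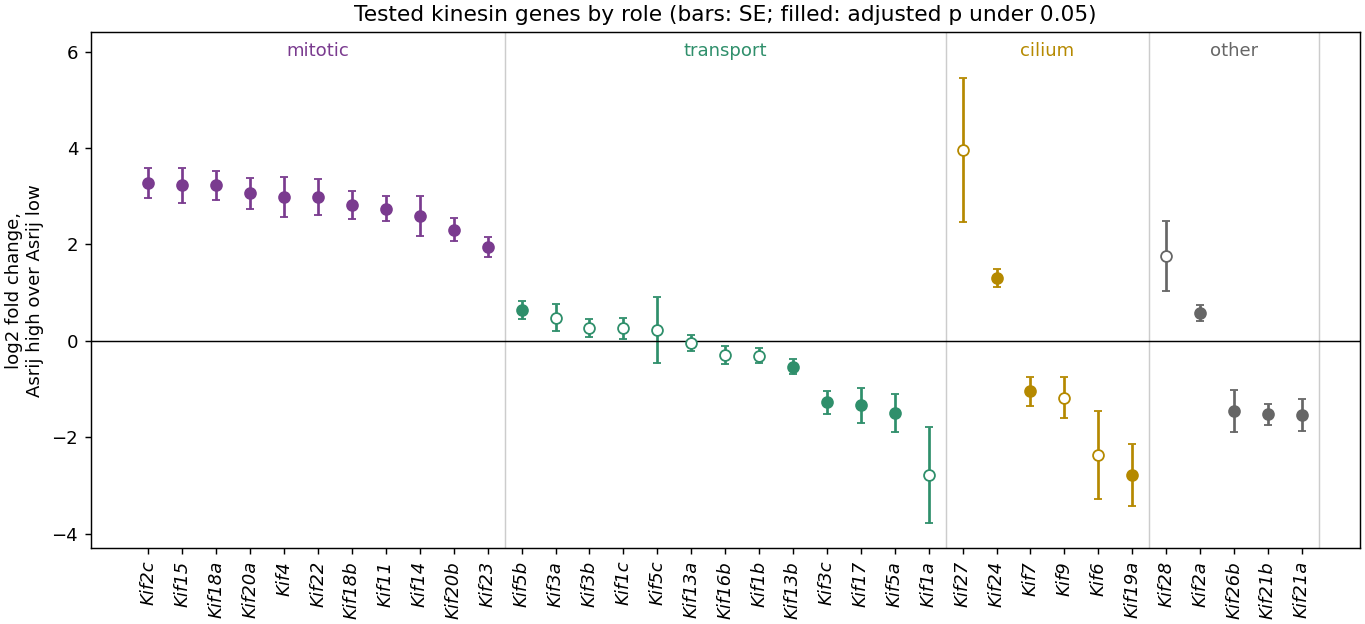
Log2 fold change (Asrij high over Asrij low) of the 35 tested kinesin genes by role, from edgeR, with bars for the SE and filled points for an adjusted p under 0.05. The 11 mitotic kinesins lie between 1.95 and 3.27, above all 13 transport kinesins, which reach from -2.78 to 0.64.

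The division of kinesin counts within a library does not depend on how libraries are scaled to each other. Mitotic kinesins took 12.7%, 12.2% and 21.1% of all kinesin counts in low 1 to low 3 and 62.6%, 55.0% and 61.8% in high 1 to high 3. The widest exact 95% binomial interval of these shares was that of low 3 (20.7% to 21.6%), which covers counting error only. The groups did not overlap, and low 3 and high 2 were the libraries of their group nearest to the other. Mitotic counts amounted to 0.264, 0.232 and 0.472 of transport counts in the low group and to 2.43, 1.90 and 2.44 of them in the high group. Summed over the list in CPM, transport kinesins ran from 535 to 629 in the low group and from 548 to 596 in the high group, so the sums overlapped while single members moved in opposite directions.

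**Figure D2:**
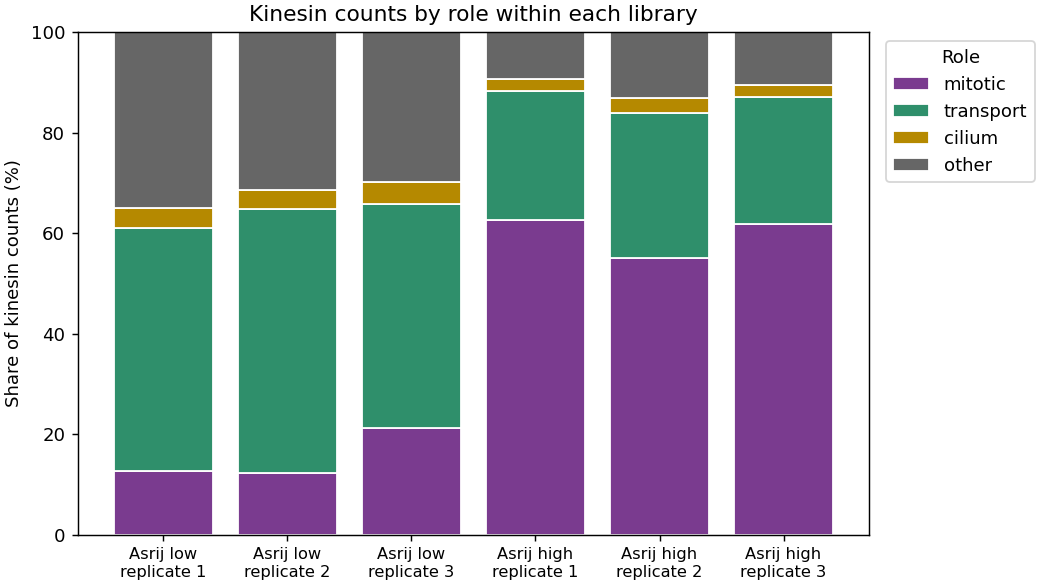
Share of kinesin counts (%) taken by each role in each of the 6 libraries, from the deposited counts. The mitotic share is 12.2% to 21.1% in the Asrij low libraries and 55.0% to 62.6% in the Asrij high libraries.

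The motors that push spindle poles apart were both higher in the high group. Kif11, which slides antiparallel spindle microtubules apart (chromosome 19, 37376382 to 37421863), was at 18.9, 19.9 and 32.9 CPM in low 1 to low 3 and at 165, 128 and 185 CPM in high 1 to high 3 (log2 2.74 ± 0.26, adjusted p = 2.21e-04). Kif15, which can share that task (chromosome 9, 122951081 to 123018733), was at 10.2, 9.42 and 23.2 CPM against 140, 104 and 155 CPM (log2 3.23 ± 0.36, adjusted p = 3.74e-04). For both genes the lowest Asrij high library was above 3 times the highest Asrij low library. Kif15 counts per 100 Kif11 counts were 53.9, 47.2 and 70.4 in the low group and 84.3, 80.6 and 83.8 in the high group, which do not overlap.

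The chromokinesins, which bind chromosome arms, rose to a similar degree. Kif4, which also shapes the central spindle, had 11.6, 11.6 and 31.9 CPM in the low group and 156, 112 and 167 CPM in the high group (log2 2.98 ± 0.41, adjusted p = 0.00109). Kif22, which pushes chromosomes away from the poles, had 16.8, 10.3 and 31.2 CPM against 169, 122 and 167 CPM (log2 2.97 ± 0.37, adjusted p = 6.53e-04). In both, low 3 was the highest of its group, and without it Kif4 was at log2 3.62. The pseudogene row Kif4-ps had 26 counts in low 2 and none in the other libraries, and exons of Kif4 overlap those of Pdzd11 on the opposite strand by 832 bases.

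Kinesins of kinetochores and microtubule ends rose to a like degree. Kif2c, which takes microtubules apart at kinetochores (chromosome 4, 117159633 to 117182624), went from 7.83, 5.26 and 12.7 CPM to 85.4, 74.1 and 88.3 CPM, a 9.64-fold difference (log2 3.27 ± 0.31, adjusted p = 2.27e-04). Kif18a, which dampens chromosome movements at the metaphase plate, had the lowest level per length of the tested mitotic kinesins, at 2.02, 2.42 and 2.12 CPM against 22.9, 14.6 and 23.8 CPM (log2 3.22 ± 0.30). Kif18b, which acts on astral microtubule ends, rose by 2.82 ± 0.29 on the log2 scale, from 16.5 ± 7.35 to 117 ± 12.5 CPM. Kif2b, a relative of Kif2c that acts in mitosis, had no count in any library. In the smallest library that allows up to 0.121 per 1000000 of the library total, before TMM scaling.

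Cytokinesis kinesins rose as well, and this group held the smallest rises. Kif20a, which brings the chromosomal passenger complex to the midzone, was the most abundant mitotic kinesin per length in the high group and went from 21.0, 16.6 and 38.6 CPM to 236, 161 and 238 CPM (log2 3.06 ± 0.32, adjusted p = 3.18e-04). Its exons overlap those of Cdc23 on the opposite strand by 1271 bases. Kif14, which recruits citron kinase, had 10.1, 10.3 and 28.8 CPM against 110, 74.4 and 111 CPM (log2 2.59 ± 0.42, adjusted p = 0.00202), and was at 3.24 without low 3. Kif20b, active at the midbody, rose by 2.31 ± 0.24, and Kif23, the motor of the centralspindlin complex, by 1.95 ± 0.22, from 13.4, 18.8 and 20.2 CPM to 65.8, 59.2 and 76.5 CPM (adjusted p = 3.66e-04). Kif23 took 9.48%, 12.9% and 7.52% of mitotic kinesin counts in the low group and 4.71%, 5.69% and 5.26% in the high group, without overlap.

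**Figure D3:**
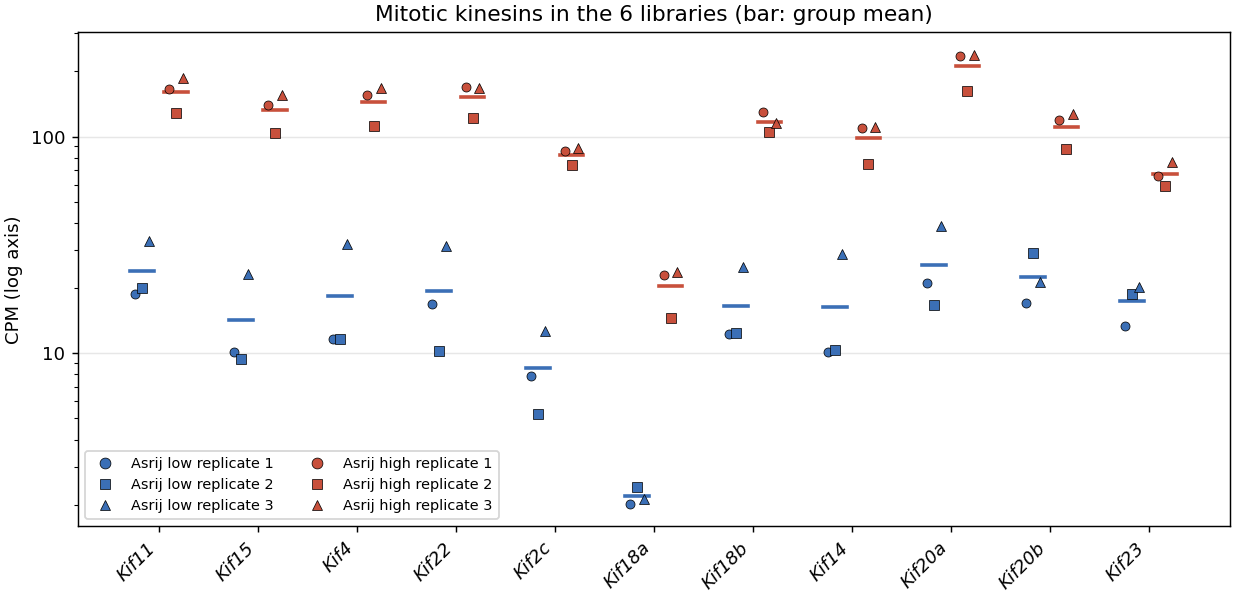
CPM on a log axis of the 11 mitotic kinesins with counts in each of the 6 libraries, with a bar at each group mean. Every Asrij high point lies above every Asrij low point of its gene, 9 of the 11 genes are highest within the low group in low 3, and all 11 are lowest within the high group in high 2.

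All 11 mitotic calls held under every alternative tried, with log2 fold changes from 1.68 to 3.89 and adjusted p-values of at most 0.029. With low 3 and high 2 both left out, the list median was 3.41.

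Of 6 motors that the naming rule leaves out, 3 rose, where 21.7% of all genes tested were higher. Kifc1, the minus-end motor that clusters spindle poles, rose from 18.7 ± 5.01 to 126 ± 20.3 CPM, by 2.75 ± 0.23 on the log2 scale (adjusted p = 1.98e-04). The kinetochore kinesin Cenpe rose from 21.4 ± 7.18 to 153 ± 38.5 CPM (log2 2.84 ± 0.30, adjusted p = 3.09e-04). Kifc5b, a close relative of Kifc1, rose by 2.35, and since near-identical genes can share reads its value is uncertain. Kifc2 (log2 0.52, adjusted p = 0.423), Kifc3 (-0.88, adjusted p = 0.192) and Stard9 (-0.11, adjusted p = 0.714), a centrosomal kinesin, did not pass the test.

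Genes whose products work with the mitotic kinesins rose as a list. Of 22 tested members 22 were higher (21.7% of all genes tested were), and their median log2 fold change was 2.74. Tpx2, which loads Kif15 on the spindle, rose by 3.45, the passenger subunit gene Incenp by 2.34, the kinetochore gene Kntc1 by 2.75 and the cyclin gene Ccnb1 by 3.62 (adjusted p = 1.98e-04, 1.98e-04, 1.87e-04 and 1.77e-04). Proliferation markers moved in the same direction, with 13 of 13 higher and summed levels of 927 to 1209 CPM in the low group against 4310 to 6325 CPM in the high group. Markers of other blood lineages moved too, where 21.7% of all genes tested were higher and 17.7% lower. Early erythroid genes such as Klf1 and Car1 were among 7 rises in a list of 14, 5 others of that list fell (Alas2 and the globin genes Hba-a1, Hba-a2, Hbb-bs and Hbb-bt), and 4 of 10 myeloid markers rose (Mpo, Elane, Prtn3 and Ctsg) and Csf1r fell, with summed levels of 487 to 1990 CPM against 3493 to 4032 CPM. The summed erythroid level was 81531 CPM in low 3 against 28037 and 11698 CPM in low 1 and low 2 and 5781 to 9879 CPM in the high group. The part of these cells in the kinesin differences was not tested.

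The 250 bases before the annotated start were examined because the mitotic members moved together. They are shown for spindle, chromosome and microtubule-end motors that rose (Kif11, Kif15, Kif22 and Kif18b), for a mitotic kinesin without any of the letters searched (Kif20b) and for a transport kinesin that fell (Kif3c). Sequences are RefSeq's on GRCm38.p6, 5′ to 3′ on the gene's strand, with capitals marking any of 3 motifs on either strand. These are the CCAAT box, bound by the factor NF-Y, the cell cycle genes homology region (CHR), searched as TTTGAA and in its form TTTAAA, and the E2F site, searched as TTTCCCGC and in its form TTTGGCGC. The windows are chr19:37376132-37376381, plus strand for Kif11. They are chr9:122950831-122951080, plus strand for Kif15, chr7:127042421-127042670, minus strand for Kif22 and chr11:102925125-102925374, minus strand for Kif18b. For Kif20b and Kif3c they are chr19:34922108-34922357, plus strand, and chr12:3364882-3365131, plus strand.
Kif11: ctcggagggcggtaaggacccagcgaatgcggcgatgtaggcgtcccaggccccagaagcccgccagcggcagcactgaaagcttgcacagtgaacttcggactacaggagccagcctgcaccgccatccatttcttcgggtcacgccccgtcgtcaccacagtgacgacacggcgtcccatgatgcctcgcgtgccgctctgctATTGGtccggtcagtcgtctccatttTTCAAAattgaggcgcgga
Kif15: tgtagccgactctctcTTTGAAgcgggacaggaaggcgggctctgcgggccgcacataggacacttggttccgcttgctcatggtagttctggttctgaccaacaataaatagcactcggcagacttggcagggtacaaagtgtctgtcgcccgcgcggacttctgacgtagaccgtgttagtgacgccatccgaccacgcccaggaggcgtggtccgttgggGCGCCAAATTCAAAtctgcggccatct
Kif22: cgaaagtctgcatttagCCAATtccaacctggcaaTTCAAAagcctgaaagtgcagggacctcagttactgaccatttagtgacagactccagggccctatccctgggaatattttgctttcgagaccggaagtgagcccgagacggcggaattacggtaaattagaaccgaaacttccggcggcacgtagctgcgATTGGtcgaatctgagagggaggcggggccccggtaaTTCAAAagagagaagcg
Kif18b: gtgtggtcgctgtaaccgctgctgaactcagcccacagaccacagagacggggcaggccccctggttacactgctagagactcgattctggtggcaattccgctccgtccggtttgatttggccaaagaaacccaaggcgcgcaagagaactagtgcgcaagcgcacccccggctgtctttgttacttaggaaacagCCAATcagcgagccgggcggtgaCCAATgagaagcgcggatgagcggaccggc
Kif20b: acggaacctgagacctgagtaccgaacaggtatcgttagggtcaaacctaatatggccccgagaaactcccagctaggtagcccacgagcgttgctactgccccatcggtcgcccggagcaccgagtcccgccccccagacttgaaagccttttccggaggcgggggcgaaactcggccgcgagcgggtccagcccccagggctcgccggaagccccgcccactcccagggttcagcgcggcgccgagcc
Kif3c: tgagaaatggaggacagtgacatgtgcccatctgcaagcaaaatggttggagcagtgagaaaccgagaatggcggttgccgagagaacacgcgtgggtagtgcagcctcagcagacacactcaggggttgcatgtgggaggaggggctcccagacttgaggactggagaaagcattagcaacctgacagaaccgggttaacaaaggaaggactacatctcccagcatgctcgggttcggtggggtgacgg

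In Kif11 the CCAAT box began 45 and the CHR 19 bases before the start, and in Kif22 a pair of the same letters began 54 and 17 bases before it. In Kif15 the E2F letters began 27 and the CHR 19 bases before the start, where they adjoin. Kif18b held CCAAT boxes 53 and 30 bases before the start. The table's window does not always lie at the start of the GENCODE M21 gene: those of Kif14 and Kif2c have their start 1505 and 3867 bases inside it, as do those of Kif27 (4175), Kif17 (11816) and 1 of 2 for Kif1a (19471). The starts used for Kif15, Kif22 and Kif4 lie 35, 51 and 328 bases inside it. The E2F and CHR letters that adjoin in Kif15 and the CHR 17 bases before the Kif22 start therefore lie within the GENCODE gene. So do both CCAAT boxes of Kif4. Counted over windows within 500 bases of the gene start, a limit chosen after seeing the data, 6 of 9 mitotic kinesins (Kif2b included) held a CCAAT box, 3 a CHR and 2 an E2F site. Of 10 such windows of 9 transport kinesins, 4 held a CCAAT box, 0 a CHR and 0 an E2F site. Among these, Kif1b enters with overlapping windows that hold the same CCAAT boxes, as it does in the count over every window below. Of 5 windows of 4 cilium kinesins 2 held a CCAAT box, Kif24 with 4 of them. Of 6 windows of 5 other kinesins 1 did, that of Kif26b, which fell and also held a CHR. Over all 18119 such windows the shares were 35.4% for the CCAAT box, 21.7% for the CHR and 1.82% for the E2F site. With every window of the table counted, the mitotic counts were 7, 5 and 2 of 11, the transport counts 4, 1 and 0 of 12, and the shares over all 32851 windows 33.8%, 25.2% and 1.30%. These matches describe letters in a window and are not measured binding sites.

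Of the 13 transport kinesins, 7.69% were called higher and 30.8% lower, against 21.7% and 17.7% of all genes tested. They changed in both directions, close relatives among them. The motor subunits of conventional kinesin, which carries mitochondria and vesicles, show this. Kif5b, the widely expressed form, had 82.0, 124 and 97.4 CPM in the low group and 156, 143 and 173 CPM in the high group (log2 0.64 ± 0.19, adjusted p = 0.0234). Kif5a, known as a neuronal form, fell from 4.89, 4.78 and 5.68 CPM to 2.02, 2.03 and 1.38 CPM (log2 -1.50 ± 0.39, adjusted p = 0.0138). Kif5c was at 0.541 to 1.11 CPM in the low group and at 0.754 to 1.47 CPM in the high group, which overlap (log2 0.23, adjusted p = 0.816). The Kif5b call was lost with upper quartile factors or library totals (log2 0.37 with either, adjusted p = 0.109 and 0.124) and without low 1, low 3, high 1 or high 3 (adjusted p = 0.0751, 0.0602, 0.0684 and 0.0975). That of Kif5a was lost without high 3 (log2 -1.39, adjusted p = 0.0708).

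In the heterotrimeric motor of cilia and endosomes, Kif3a pairs with Kif3b, and Kif3a can instead pair with Kif3c. Kif3c (chromosome 12, 3365132 to 3406494) fell from 32.5, 44.0 and 36.2 CPM to 12.9, 19.4 and 14.2 CPM, a log2 fold change of -1.28 ± 0.23 (adjusted p = 0.00283) whose call held in all alternatives. Kif3b was at 49.7 ± 0.988 CPM in the low group and 59.7 ± 12.4 CPM in the high group (log2 0.26, adjusted p = 0.299), and Kif3a at 19.7 ± 5.95 and 27.4 ± 6.60 CPM (log2 0.48, adjusted p = 0.207). For each 100 counts of Kif3a there were 191, 281 and 136 counts of Kif3c in the low group and 42.7, 97.4 and 44.2 in the high group, which do not overlap. Exons of Kif3c overlap 1110002L01Rik on the opposite strand by 2617 bases, and the strand setting of the counting is not given in the sources used here. The non-motor subunit gene Kifap3 was not called (log2 -0.26, adjusted p = 0.474).

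Among the vesicle motors of the Kif1, Kif13 and Kif16 families, 1 of 6 was called, where 39.4% of all genes tested were. Kif13b, which carries membrane receptors, fell from 93.8, 108 and 95.9 CPM to 61.8, 69.2 and 74.8 CPM (log2 -0.53 ± 0.15, adjusted p = 0.0216), whereas its paralogue Kif13a had 92.3 ± 16.0 and 89.2 ± 3.13 CPM (log2 -0.050 ± 0.17, adjusted p = 0.836). The Kif13b call was lost without a count filter (adjusted p = 0.0808) and without low 1, low 2 or high 1 (adjusted p = 0.054, 0.0598 and 0.0808). Kif1b (log2 -0.30, adjusted p = 0.164), Kif1c (0.26, adjusted p = 0.375) and the early endosome motor Kif16b (-0.29, adjusted p = 0.242) did not pass. Kif1b and Kif16b were called lower with upper quartile factors (log2 -0.58 and -0.56, adjusted p = 0.0193 and 0.0267) and library totals (-0.57 and -0.56, adjusted p = 0.0306 and 0.0483). Kif1a, a synaptic vesicle motor, was at 0.814, 0.346 and 3.78 CPM in the low group and 0.294, 0.283 and 0.137 CPM in the high group (log2 -2.78, adjusted p = 0.0516), and it was called in 7 of 15 alternatives. Low 3 is the highest library by far, and without it the value was -1.33 (adjusted p = 0.307).

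Kif17, a motor of dendrites and cilia, fell from 14.0, 15.1 and 10.8 CPM to 3.60, 8.14 and 4.08 CPM (log2 -1.34 ± 0.37, adjusted p = 0.0172). The call was lost without low 1, low 2, high 1 or high 3 (adjusted p = 0.0594, 0.0512, 0.0532 and 0.0573), and with low 3 and high 2 both left out it was at -1.94. Its exons overlap those of Sh2d5 on the same strand by 74 bases, and Kif17 counts per 100 Sh2d5 counts were 27.4, 32.7 and 28.7 in the low group and 24.7, 24.8 and 37.8 in the high group. The ratio overlapped between the groups, and the share of reads these genes have in common was not tested.

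**Figure D4:**
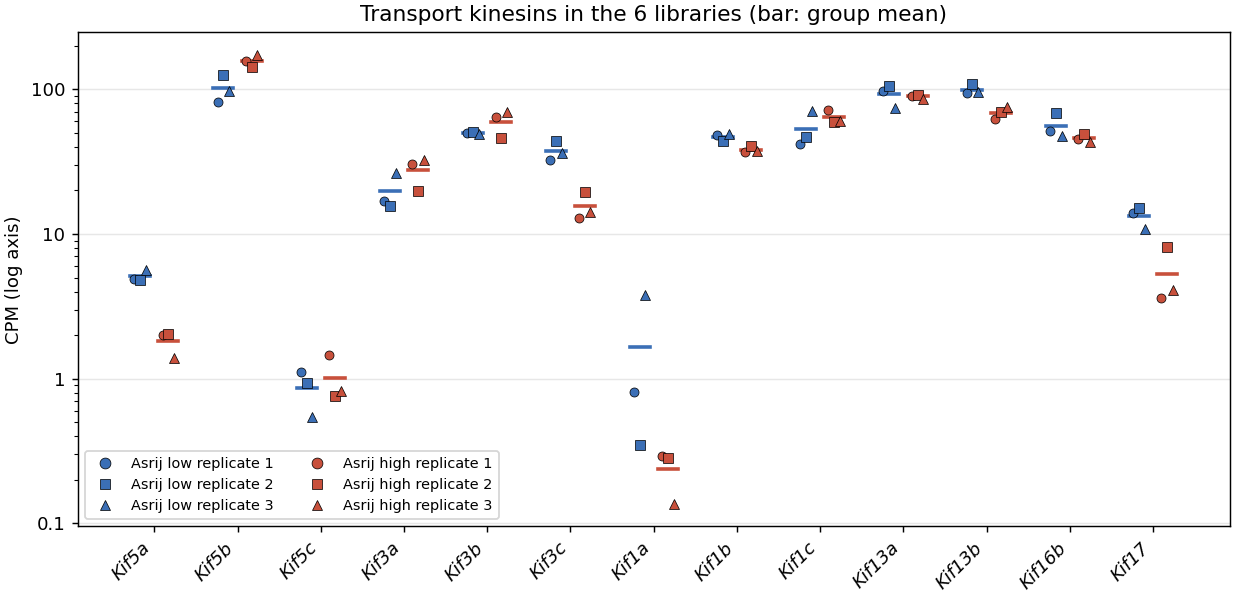
CPM on a log axis of the 13 transport kinesins in each of the 6 libraries, with a bar at each group mean. Kif5b is higher in the high group, Kif5a, Kif3c, Kif13b and Kif17 are lower, and the other 8 did not pass the test.

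Light chains and cargo adaptors of kinesins also went both ways, with 4 of 21 tested members higher and 5 lower (19.0% and 23.8%, against 21.7% and 17.7% of all genes tested), shares near those of the whole table, and a median log2 fold change of -0.08. The light chain gene Klc4 fell by 1.25 and Madd, an adaptor of the Kif1 motors, by 1.28 on the log2 scale (adjusted p = 0.00148 and 0.0041), and the lysosomal GTPase gene Arl8a fell by 0.81 (adjusted p = 0.00609). Its paralogue Arl8b rose by 0.55 (adjusted p = 0.0364). The mitochondrial adaptor genes Rhot1 (log2 0.58, adjusted p = 0.044), Rhot2 (0.71, adjusted p = 0.00648) and Trak2 (0.84, adjusted p = 0.0328) rose too. Among these rises, the calls of Arl8b, Rhot1 and Trak2 were lost with RLE, upper quartile or library total scaling (adjusted p from 0.0502 to 0.31) and with a filter at a mean of 1 CPM (0.0542, 0.063 and 0.059), and they were called in 6, 7 and 8 of 16 alternatives. They were also lost without high 1 (0.146, 0.155 and 0.141) or high 3 (0.13, 0.15 and 0.152), and that of Rhot2 was lost with library totals (log2 0.44, adjusted p = 0.0516). Without low 1 the calls of Arl8b and Trak2 were lost (0.0906 and 0.0915), without low 2 that of Trak2 (0.0654) and without low 3 those of Arl8b and Rhot1 (0.0882 and 0.12), as they were with low 3 and high 2 both left out (0.0615 and 0.0743).

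Cytoplasmic dynein and its activator dynactin move cargo in the other direction along microtubules. Of 28 tested genes of this list 11 rose and 0 fell, with a median log2 fold change of 0.44. The share called, 39.3%, is near the 39.4% of all genes tested, of which 21.7% were higher. The light chain gene Dynll1, whose product has partners besides dynein, rose by 1.88, the dynein regulator gene Nde1, active in mitosis, by 1.12, and the dynactin genes Dctn3 and Dctn2 by 1.07 and 0.76 (adjusted p = 3.23e-04, 0.00158, 0.00232 and 0.00563). The dynein heavy chain gene Dync1h1 was at 777 and 782 CPM (log2 0.0081, adjusted p = 0.973).

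Kinesins of the cilium changed in both directions. Kif24, which restrains cilium assembly at the mother centriole, rose from 16.8, 18.6 and 17.6 CPM to 43.2, 40.1 and 47.2 CPM (log2 1.30 ± 0.18, adjusted p = 9.38e-04), and its replicates lay close together. Kif7, a regulator of Hedgehog signalling at the cilium tip, fell from 18.5, 16.5 and 21.9 CPM to 8.19, 13.0 and 6.32 CPM (log2 -1.05 ± 0.31, adjusted p = 0.023). Its call was lost without low 1, low 3, high 1 or high 3 (adjusted p = 0.0642, 0.0575, 0.0669 and 0.0766). Kif19a, which sets cilium length, fell from 2.48, 4.95 and 5.87 CPM to 0.294, 1.16 and 0.455 CPM (log2 -2.79 ± 0.64, adjusted p = 0.00816), and was at -3.51 without high 2.

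The rest of the cilium list was rare and did not pass the test. Kif27, a relative of Kif7, had 0, 0 and 6 counts in the low group and 102, 33 and 62 in the high group (adjusted p = 0.0606), and it was called higher in 5 of 15 alternatives, among them DESeq2 (adjusted p = 0.0179) and the fit without low 3 (0.0102). Kif9 (log2 -1.18, adjusted p = 0.0524) and Kif6 (-2.37, adjusted p = 0.0663) were lower in each Asrij high library than in any Asrij low library. Kif9 was called in 8 of 16 alternatives (adjusted p from 0.0134 to 0.159) and Kif6 in 5 of 15 (0.0203 to 0.227), and without high 3 Kif6 was at -3.59 (adjusted p = 0.0413).

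Among genes of intraflagellar transport, basal body control and Hedgehog signalling, 3 of 27 tested rose and 3 fell (11.1% each, below the 21.7% and 17.7% of all genes tested), with a median log2 fold change of -0.22. Ccp110, a centriolar partner of Kif24, rose by 1.26, the Hedgehog receptor gene Ptch1 by 0.90 and Ift20 by 0.78 (adjusted p = 0.00288, 0.00351 and 0.0187). The falls were those of Ift81 (log2 -2.28, adjusted p = 0.00445), Ift122 (-1.15, adjusted p = 0.00616) and Gli2 (-4.20, adjusted p = 0.0213). The call of Ift20 was lost with upper quartile factors or library totals (adjusted p = 0.102 and 0.086) and without low 1, high 1 or high 3 (0.0518, 0.134 and 0.0725). That of Gli2 was lost without high 1, high 2 or high 3 (log2 -3.69, -4.32 and -4.90, adjusted p = 0.0799, 0.0736 and 0.0642) and with low 3 and high 2 both left out (-4.54, adjusted p = 0.0613).

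The kinesin with the largest fall in CPM per kilobase was Kif21b, which limits microtubule growth and is known in neurons and lymphocytes (chromosome 1, 136131390 to 136178001). It had 272, 247 and 264 CPM in the low group and 62.1, 108 and 102 CPM in the high group (log2 -1.52 ± 0.22, adjusted p = 0.00101). In Asrij low it alone took 24.5%, 20.7% and 20.8% of kinesin counts, against 2.78%, 5.71% and 4.32% in the high group. Its paralogue Kif21a fell by as much on the log2 scale (-1.54 ± 0.34, adjusted p = 0.00632) at a lower level, 8.10 ± 1.27 against 2.79 ± 0.455 CPM. Lymphoid markers fell beside them: 7 of 9 B and plasma cell markers were lower, as were 17.7% of all genes tested. The summed levels of these markers were 87.1 to 238 CPM in the low group and 21.0 to 28.3 CPM in the high group. The T and NK markers had summed levels of 36.6 to 50.4 and 29.3 to 66.9 CPM, with 2 of 4 tested lower and the 4 others, Cd3e and Cd3g among them, below the filter. The part of lymphoid cells in these falls was not tested.

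Kif26b, a kinesin-like protein without known motor activity, fell from 35.2, 25.0 and 20.4 CPM to 6.85, 17.4 and 5.25 CPM (log2 -1.45 ± 0.44, adjusted p = 0.0261), with the highest value of its group in high 2. Without that library it was at -2.12, and its call was lost without low 1, low 2, high 1 or high 3 (adjusted p = 0.107, 0.0534, 0.08 and 0.0576). Stromal markers, which include genes of the reticular cells of the marrow, fell in 10 of 10 cases. Of all genes tested, 17.7% were lower and 21.7% higher. The summed stromal levels were 332, 246 and 801 CPM in low 1 to low 3 and 24.0, 76.2 and 37.3 CPM in high 1 to high 3. In the high group these sums and Kif26b were both highest in high 2. In the low group the sums were highest in low 3, where Kif26b was lowest. Endothelial markers fell in 2 of 6 cases (90.7 to 216 CPM against 16.8 to 44.2 CPM). Of 8 megakaryocyte markers 1 fell (12.5%), below the 17.7% of all genes tested. Of 7 neuronal markers, 3 passed the filter and 1 of these, Tubb3, rose, and their sums were 3.70 to 4.40 and 3.17 to 4.89 CPM. Whether these cells add to the kinesin values was not tested.

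Kif2a, a microtubule depolymerase with tasks both in mitosis and between divisions, rose from 70.0, 93.9 and 85.2 CPM to 129, 113 and 130 CPM (log2 0.58 ± 0.17, adjusted p = 0.0203). It was not called with upper quartile factors or library totals (log2 0.31 with either, adjusted p = 0.126 and 0.132) or without low 1, high 1 or high 3 (0.0655, 0.0946 and 0.0937). Exons of Kif2a overlap those of Dimt1 on the opposite strand by 1229 bases, and the effect of this on the counts was not tested. For each 100 counts of Kif2a there were 11.2, 5.61 and 14.9 counts of its mitotic relative Kif2c in the low group and 66.1, 65.5 and 67.9 in the high group. Kif28, at 3.26, 0.762 and 0.347 CPM against 5.07, 4.19 and 5.86 CPM, did not pass at an adjusted p = 0.0779 (log2 1.76), and was called in 5 of 16 alternatives, among them the fit with the replicate number as a block (log2 2.30, adjusted p = 0.0277) and that without low 1 (log2 3.20, adjusted p = 0.00912). Exons of Kif28 overlap those of Ahctf1 on the same strand by 155 bases, and Ahctf1 had 2407 to 6365 counts in the low group and 17306 to 26069 in the high group. The share of reads they have in common was not tested. Kif12 had 17 counts in low 2 and none in the other libraries, and Kif26a had 0, 0 and 10 counts in the low group and 9, 2 and 11 in the high group.

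Levels of different genes were compared per kilobase of exon, with exon lengths from GENCODE M21. In Asrij low the order of mean CPM per kilobase was led by Kif21b (21.4 ± 1.03), followed by Kif2a (13.0 ± 1.89), Kif5b (12.7 ± 2.69) and Kif13a (11.4 ± 1.98), and the latter 3 lie within their spread of each other. The highest mitotic kinesin there was Kif20a, at 5.86 ± 2.69. In Asrij high the order was led by mitotic kinesins, Kif20a (48.9 ± 10.1), Kif18b (32.6 ± 3.49), Kif22 (31.1 ± 5.38), Kif4 (26.3 ± 5.30) and Kif11 (21.4 ± 3.86), where Kif18b, Kif22 and Kif4 overlap in their spread. Kif5b (19.7 ± 1.89) came next, and Kif21b stood at 7.44 ± 2.05.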

How the data were processed

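The values are the authors' deposited counts, whole and without scaling, for 49997 gene symbols in 6 libraries. The labels' protocols describe rRNA depletion and a directional kit, while their molecule entry reads polyA RNA. The submitters' processing notes name mm10 and the tools FastQC, HISAT2, Subread and SAMtools. Tool versions, the annotation, the strand option and the handling of multiply mapping reads: not given in the sources used here. Columns were tied to samples by library name.

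Counts were analysed in R 4.3.3 with edgeR 4.0.16 (quasi-likelihood test, robust, TMM factors, group as the only term) on 21445 of 49997 genes kept by filterByExpr (minimum count 10, minimum total 15), with Benjamini-Hochberg adjustment over all of them. SEs were derived from the quasi-likelihood statistic. Alternatives used DESeq2 1.42.0, limma-voom (limma 3.58.1), other scalings and filters, thinning to the smallest library, a replicate block and left-out libraries. The pipeline was tested on simulated counts. Within each group, every pair of libraries differed beyond counting noise (chi-square divided by its degrees of freedom, 75.3 to 168).

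Members and gene lists were chosen with earlier results of these data known. Every kinesin row is named, with Ociad1, the kinesins outside the naming rule, up to 4 called members with the smallest p of each other list, and called members against their list's direction, or all called members where both directions were equal. Dync1h1, Kifap3, Sh2d5 and single marker genes were named after their values were seen. Of 242 symbols written, 1 (Ift25) was not matched. Promoter sequences were found for 31 of 38 kinesins. Gene coordinates are RefSeq's on GRCm38.p6.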

Additional observations from a re-analysis of the deposited data

How the results depend on the processing

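The 11 mitotic calls and the mitotic median held throughout (2.68 to 3.41 over the settings, 2.71 to 3.24 with 1 library left out and 2.90 with Kif2a added). Scaling by upper quartile factors or library totals shifted the all-gene median by -0.27 on the log2 scale. It turned 14 higher and 9 lower kinesins into 12 and 14 with either (46.2% higher in place of 60.9%; 39.9% and 40.2% over all genes). It gave 0 higher and 7 lower transport kinesins with either, and a transport median of -0.56. That median was -0.39 with a filter at a mean of 1 CPM and ran from -0.32 to -0.086 (without low 2) with 1 library left out. With 1 library left out, lower kinesins ran from 5 (without low 1 or high 1) to 9, higher transport kinesins from 0 to 1, lower transport kinesins from 2 (without low 1, high 1 or high 3) to 4, and lower genes over the whole table from 2346 (without high 1) to 3752. With low 3 and high 2 both left out, 3 transport kinesins were higher, Kif5b with Kif1c (log2 0.56, adjusted p = 0.0414) and Kif3a (0.91, adjusted p = 0.0147). The mitotic share was 20.7% in the low group and 66.8% in the high group on counts per kilobase, 22.3% and 65.5% with Kif2a counted as mitotic, and 64.3% in the high group with Kifc1 and Cenpe added, against 15.4% and 59.8%. Ociad1 was not called with upper quartile factors or library totals (log2 0.36 with either, adjusted p = 0.0834 and 0.133), and was at 0.53 to 0.76 with 1 library left out (adjusted p = 0.0831 without high 1).

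Directions of uncalled genes turned as follows. With upper quartile factors and library totals, Kif1c was at -0.020 and -0.00066, Kif3b at -0.0093 and -0.014, and Kif5c at -0.047 and -0.074. Kif13a was at 0.030 without a count filter and ran from -0.21 to 0.084 with 1 library left out, and Kif5c from -0.17 to 0.49. Stard9 was at 0.057 with low 3 and high 2 both left out. The cause of these moves was not tested. Same-numbered libraries deviated together with correlations of 0.0126, 0.046 and 0.225, and differently numbered ones with correlations from -0.158 to 0.0997. The replicate numbers were not taken as pairs because the labels do not say that they mark a shared animal or day. With the replicate block 15 kinesins were higher and 9 lower, and the mitotic median was 3.10. The calls of Arl8b and Rhot1 were lost with it (adjusted p = 0.0605 and 0.0573). Depth limits the genes under about 1 CPM in the low group. There, 3 counts equal 0.0649 to 0.121 per 1000000 of the library total, before TMM scaling.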

Other observations

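Ratios within a library gave values that belong to no comparison above. Mitotic kinesin counts per 100 counts of 13 proliferation markers were 15.2, 12.5 and 22.2 in low 1 to low 3 and 24.0, 24.2 and 23.0 in the high group, so the ratio was nearly level over the Asrij high libraries. Kif20b counts per 100 Kif20a counts were 81.3, 174 and 55.1 in the low group and 50.3, 54.0 and 53.4 in the high group. low 2, where Kif20b was highest of its group and Kif20a lowest, stands out among these 6 values. Kif20b took 12.1%, 19.8% and 7.96% of mitotic kinesin counts in the Asrij low libraries and 8.50%, 8.37% and 8.75% in the Asrij high libraries. Kif13b counts per 100 Kif13a counts were 96.0, 103 and 129 in the low group against 68.5, 75.5 and 87.3 in the high group, without overlap. Kif21a counts per 100 Kif21b counts were 2.47, 3.72 and 3.19 against 4.08, 3.06 and 2.48, which overlap. No test was run on these ratios.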
